A study of Mus musculus with 4 samples.

Results

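The 9 genes described here encode components of the basement membrane: Lama2, Lama4, Lamb1 and Lamc1 for laminin chains, Col4a1 and Col4a2 for collagen IV chains, Nid1 for nidogen-1, Hspg2 for perlecan and Col15a1 for collagen XV. Taken from the data were all PTBP1 clusters whose midpoint lay in the GRCm38 span of 1 of the 9 genes, on the strand of that gene. This gave 911 of 376266 clusters in replicate 1 and 993 of 388894 in replicate 2. The genes were grouped by function, but they were chosen with earlier results of these data known. Clusters came from enhanced crosslinking and immunoprecipitation (eCLIP) of polypyrimidine tract binding protein 1 (PTBP1) from whole heart of wild-type C57BL/6 mice, the only genotype and tissue of the series. The series holds 4 samples, 2 immunoprecipitates (IP) with a size-matched input for each, drawn from the same lysate before antibody was added. The labels give no age and no treatment, and do not say whether a different mouse gave each lysate, so differences between replicates may be technical.

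The basement membrane is a thin sheet of matrix that surrounds each cardiomyocyte and underlies the endothelium. Laminin trimers, each of an alpha, a beta and a gamma chain, form a network at the cell surface, and collagen IV forms another, with nidogen and perlecan linking them. PTBP1 binds pyrimidine-rich RNA, often in introns, and is known mainly as a regulator of alternative splicing. By its title the series is about PTBP1 in fibroblasts of the heart, and the comparison of IP with input addresses where PTBP1 contacted RNA.

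PTBP1 clusters with a high fold over input were found in 7 of the 9 genes in both replicates, and most of them lay in Lama2, Nid1 and Lamc1. Col4a1 and Lamb1 had none that was shared. Here enriched means that IP exceeded its own input by a log2 fold of 3 or more with a −log10 p of 3 or more, where every fold and p is the authors' own and stands in the authors' deposited table of that replicate. Enriched clusters numbered 100 of 911 (11.0%) in replicate 1, where 6.31% of all clusters were enriched, and 78 of 993 (7.85%) in replicate 2, against 4.71%. Reproducible means enriched and sharing 1 nt or more, strand included, with an enriched cluster of the other replicate. The 9 genes held 62 reproducible clusters by replicate 1 (6.81%, against 3.98% of all clusters) and 61 by replicate 2 (6.14%, against 3.72%). Of all 13690 genes with clusters in both tables, 24.9% had a reproducible cluster. Among the 2495 genes with at least 38 clusters in each table, the lowest number in any of the 9 genes, 75.2% had a reproducible cluster. The 7 of 9 is close to that share, which beyond this minimum was not matched to the 9 genes in coverage. No test was made of it. Read numbers per cluster are unknown, so no interval can be given for a single fold.

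Enriched clusters were spread unevenly over the 9 genes. Nid1, Lamc1 and Lama2 held 69 of the 100 enriched clusters of replicate 1 and 61 of the 78 of replicate 2. The other 6 genes, which are those left once the genes with most enriched clusters are set aside, held 31 of 458 (6.77%) and 17 of 494 (3.44%). Without Lama2 alone the share in the remaining 8 genes was 10.8% and 7.49%, close to that of all 9. By share, Nid1 stood first with 42.1% and 39.5% of its clusters enriched. Lamc1 followed with 17.7% and 14.7%. Lama2, Hspg2, Lama4 and Col4a2 lay between 9.68% and 11.3% in replicate 1 and between 3.97% and 8.52% in replicate 2, where Lama4 and Col4a2 were below the share of all clusters. Col15a1, with 4.29% and 2.7%, Lamb1, with 2.38% and 0%, and Col4a1, with 1.09% and 0%, lay below the share of all clusters in both.

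**Figure D1:**
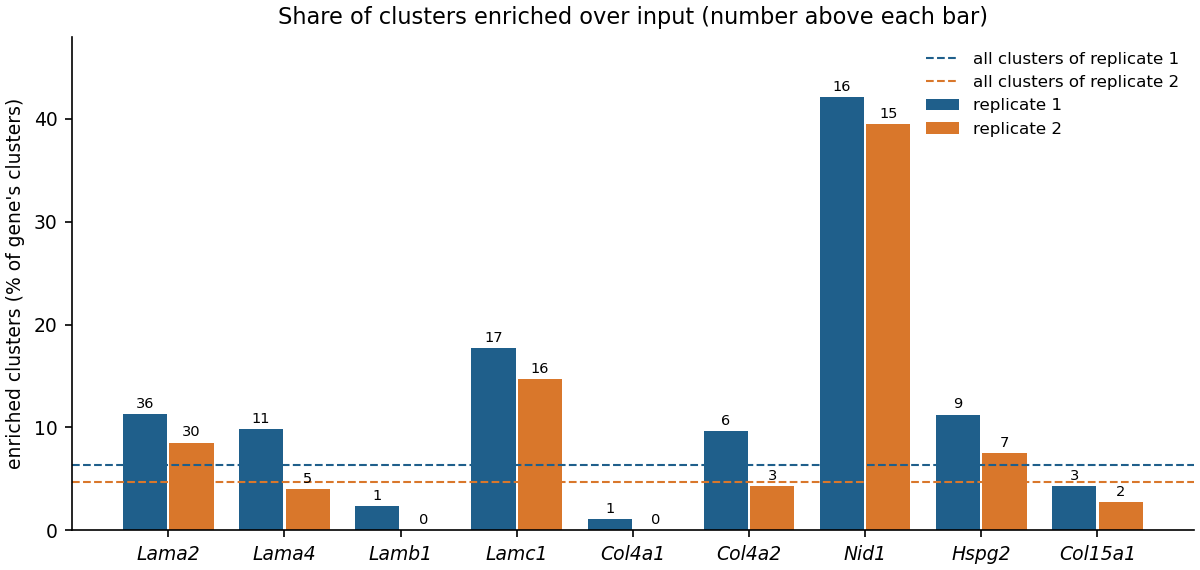
Share of each gene's PTBP1 clusters that were enriched over input (y axis, %), with the number of enriched clusters above each bar, in replicate 1 (blue) and replicate 2 (orange); dashed lines give the share over all clusters of each table, 6.31% and 4.71%. Nid1, Lamc1, Lama2 and Hspg2 stand above the line of each replicate, and Lamb1, Col4a1 and Col15a1 stand below them.

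Folds over all clusters of a gene were positive at the median in each of the 9 genes. Many clusters shared exact fold values, as described under other observations. The medians of Col4a2, Lama2 and Lama4 in replicate 2 were all 1.0348. How far such folds measure a ratio of IP to input was not tested. The median of the 9 gene medians was 1.23 (log2 fold, replicate 1) and 1.03 (replicate 2). Over the 10691 genes with at least 3 clusters in both tables the median was 0.36 in both, with quartiles of −0.0089 and 0.92 in replicate 1 and of −0.17 and 0.84 in replicate 2. In replicate 1, 7 of the 9 genes lay above the median of all genes, and in replicate 2, 8 did. Clusters with a fold below 0 made up 19.2% and 16.9% of the clusters in the 9 genes, against 27.1% and 28.5% of all clusters. Enriched clusters in these genes were longer, with a median of 124.5 nt and 118.5 nt, than the others, with a median of 65 nt in both replicates. The same held over all clusters, where the medians were 130 nt and 131 nt for enriched clusters and 67 nt and 64 nt for the others.

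**Figure D2:**
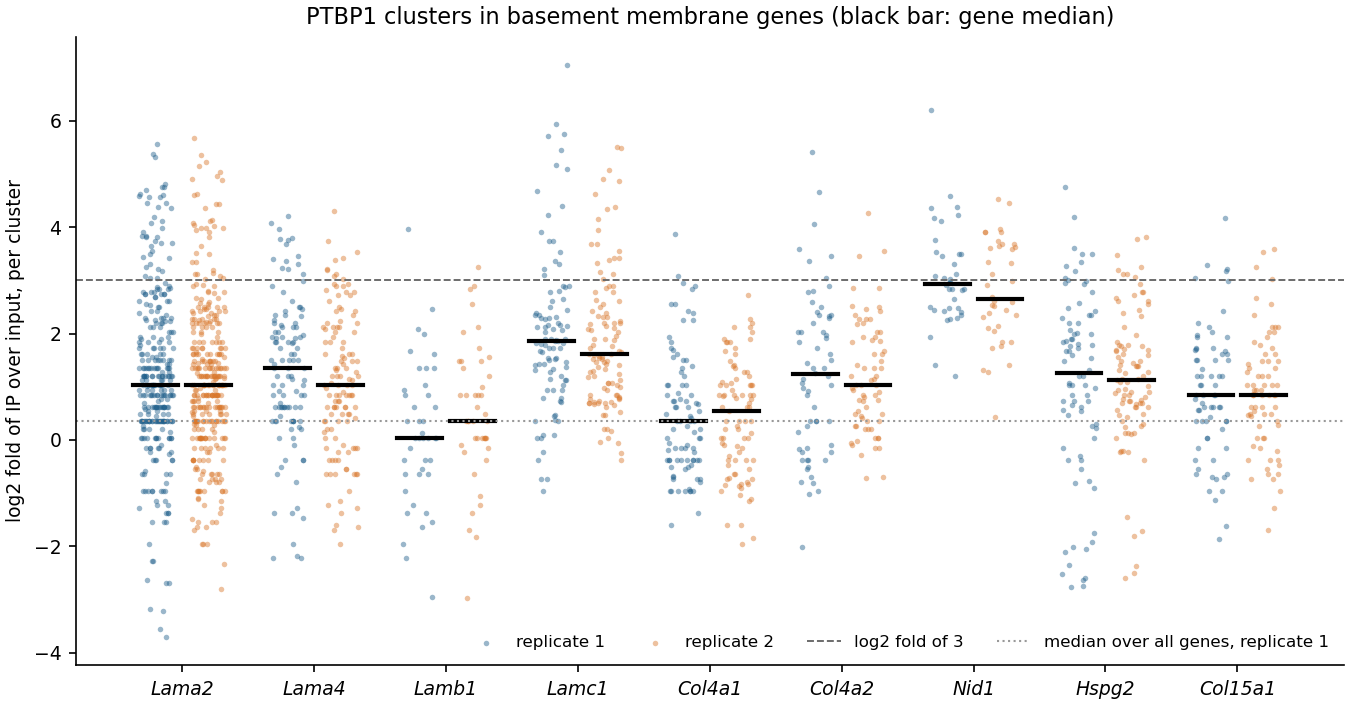
Log2 fold of IP over input (y axis) of every PTBP1 cluster in the 9 genes, 1 point per cluster, in replicate 1 (blue) and replicate 2 (orange); black bars are gene medians, the dashed line is the log2 fold of 3 and the dotted line the median over all genes in replicate 1. All points of Nid1 lie above 0, while Lama2 runs from −3.70 to 5.56 in replicate 1.

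In whole heart a fold compares PTBP1-bound RNA with the RNA of the same lysate, and fewer cells of a type and less RNA per cell cannot be told apart. Markers of each cell type were present: all 8 cardiomyocyte, 7 fibroblast, 6 endothelial, 6 pericyte and smooth muscle and 5 macrophage markers had clusters in both tables. Over markers with at least 3 clusters in both tables, the median of gene medians was −2.84 and −2.46 for cardiomyocyte (8 genes) and 1.10 and 1.07 for fibroblast markers (6). It was 1.54 and 1.28 for endothelial (6), 1.64 and 1.36 for pericyte and smooth muscle (6), and 0.78 and 0.76 for macrophage markers (4). The lists were mixed. Of the cardiomyocyte genes, 2 (Ryr2 and Myh6) had medians above 0 in both replicates. So did 4 of the 6 fibroblast, all 6 endothelial, 5 of the 6 pericyte and smooth muscle and 3 of the 4 macrophage genes. The 9 genes, at 1.23 and 1.03, lay among the lists of cells other than cardiomyocytes, and the part of cell type in their folds was not tested.

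Among the laminin alpha chains, Lama2 encodes the alpha2 chain that is typical of muscle basement membrane and is mutated in a congenital muscular dystrophy. Lama2 (Entrez 16773, chr10:26981285-27617191, minus strand, a span of 635.9 kb) held the most reproducible clusters of the 9 genes, 23 by replicate 1 and 22 by replicate 2. That placed it 65th of 13690 genes by number. It also held the most clusters of any kind, 319 and 352, so its enriched share, 36 clusters (11.3%) and 30 (8.52%), ranked only 452nd of the 2495 genes with at least 38 clusters in each table. The gene median was 1.04 and 1.03, and 49 and 60 clusters lay below 0. A long gene thus carried both many enriched clusters and many at or below input.

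All reproducible clusters of Lama2 lay upstream of the midpoint of its span, where 218 of its 319 clusters of replicate 1 and 243 of its 352 of replicate 2 also lay. Of the enriched clusters, 32 of 36 and 28 of 30 lay there. Joined where they touched or overlapped, the reproducible clusters formed 15 regions, and 14 of these began within 152.0 kb of the 5′ end. The last began 304.8 kb from it (chr10:27312092-27312411, highest folds 5.32 and 4.37). The group with the most regions was a stretch of 1934 nt that began 41.4 kb from the 5′ end (chr10:27573908-27575841). It held 5 regions with 6 and 7 reproducible clusters and reached log2 folds of 5.38 in replicate 1 and 5.67 in replicate 2. Within it lay the leading pair of the gene, which for every gene is the one whose weaker fold was highest among overlapping pairs. That pair had a log2 fold of 5.38 with a −log10 p of 14.4 at chr10:27574940-27575032 in replicate 1, and 5.15 with 12.1 at chr10:27574939-27575007 in replicate 2. Further stretches began 7.17 kb (chr10:27606691-27610024, 2 regions, folds up to 4.63 and 5.05) and 68.9 kb from the 5′ end (chr10:27546199-27548298, 3 regions, folds up to 4.75 and 4.97). Between these lay single regions 19.1 kb and 24.6 kb from the 5′ end, the latter with folds of 4.46 and 5.22. The region 138.4 kb from the 5′ end had highest folds of 5.56 and 3.35, and that 152.0 kb from it 3.50 and 3.65.

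Lama4 encodes the alpha4 chain, which is abundant in the basement membrane of blood vessels. Lama4 (Entrez 16775, chr10:38965515-39110188, plus strand) had 112 and 126 clusters, of which 11 (9.82%) and 5 (3.97%) were enriched. The median fold was 1.36 and 1.03. All 5 enriched clusters of replicate 2 were reproducible, while 6 of the 11 of replicate 1 were enriched in that replicate alone. The 5 regions were single and spread along the gene, from 6.89 kb to 133.1 kb from the 5′ end. Its leading pair lay 6.91 kb from the 5′ end, with a log2 fold of 3.77 at chr10:38972427-38972565 in replicate 1 and of 4.30 at chr10:38972403-38972585 in replicate 2, sharing 139 nt. The pair with the highest −log10 p of the gene, 15.4 and 17.8, lay at 92.1% of the span (chr10:39098647-39098841 in replicate 1), with folds of 3.40 and 3.74. Folds of reproducible clusters in Lama4 did not exceed 4.30, lower than the highest in Lama2 in both replicates.

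The beta1 and gamma1 chains, which join in many laminin trimers, lay at opposite ends of the 4 laminin genes by median fold and enriched share. Lamc1, the gene of the gamma1 chain (Entrez 226519, chr1:153218922-153332786, minus strand), had 96 and 109 clusters. Of these 17 and 16 were enriched and 11 and 13 reproducible. Its median fold was 1.87 and 1.62, at the percentiles 94.6 and 93.7 of all gene medians. Only 5 and 4 of its clusters lay below 0. Lamb1, the gene of the beta1 chain (Entrez 16777, chr12:31265146-31329644, plus strand), had 42 and 44 clusters, 1 and 0 enriched and none reproducible. Its median was 0.04 and 0.36, and 17 and 11 clusters lay below 0. The medians of Lamc1 were above those of Lamb1 by more than the difference between replicates of either gene.

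Lamc1 held the highest fold of the 9 genes in replicate 1. The cluster at chr1:153302027-153302218 had a log2 fold of 7.05 with a −log10 p of 97.6. Its partner in replicate 2, at chr1:153302024-153302216, shared 190 nt and had a log2 fold of 5.52 with a −log10 p of 48.3, the highest fold of Lamc1 there. The edges of the site differed by at most 3 nt between the lysates. It lay in a stretch of 853 nt that began 30.3 kb from the 5′ end (chr1:153301668-153302520) with 7 reproducible clusters in replicate 1 and 8 in replicate 2. Of this stretch, 570 nt formed 1 region without a gap (chr1:153301951-153302520), the longest of the 9 genes. Within it neighbouring pairs had folds of 5.72 and 5.49, of 5.09 and 4.90, of 5.45 and 4.38, and of 4.41 and 5.08. On its 3′ side lay pairs with folds of 5.95 and 4.62 and of 3.75 and 3.69. A shorter region of 305 nt lay closer to the 5′ end, 9.70 kb from it (chr1:153322779-153323083), with highest folds of 5.76 and 4.88. The remaining reproducible regions of Lamc1 lay 60.8 kb and 87.1 kb from the 5′ end, with folds of 3.53 and 3.94, and of 4.23 and 3.39.

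The best pair of Lamb1 missed the call on 1 side only. It had a log2 fold of 3.97 with a −log10 p of 4.66 at chr12:31276052-31276179 in replicate 1. The overlapping cluster of replicate 2, at chr12:31276058-31276169, had a log2 fold of 3.24 with a −log10 p of 2.42, under the threshold of 3. It lay 10.9 kb from the 5′ end. Near the 5′ end of the span of Lamb1, clusters at chr12:31265301-31265352 in replicate 1 and chr12:31265308-31265402 in replicate 2 had folds of −1.64 and −0.23. They were the only clusters that touched RefSeq's promoter window (GRCm38.p6, 250 bases before to 50 after the listed start) in the 7 genes matched to one.

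**Figure D3:**
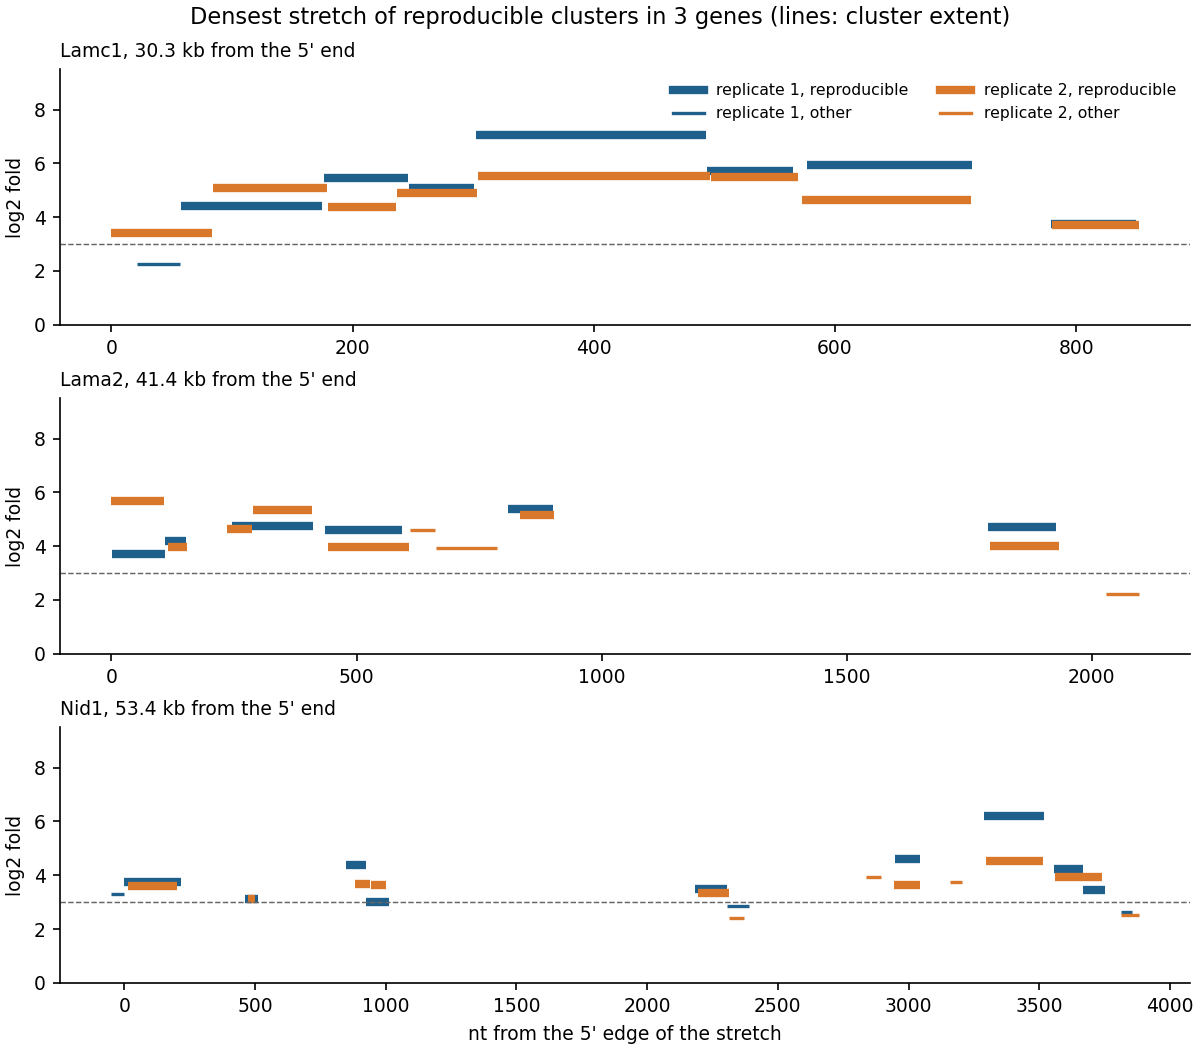
Log2 fold of IP over input (y axis) against position in nt from the 5′ edge of the stretch (x axis). For Lamc1, Lama2 and Nid1, the stretch with the most reproducible clusters of replicate 1 is drawn. Each line spans 1 cluster, thick where reproducible and thin otherwise, blue for replicate 1 and orange for replicate 2. Reproducible lines overlap between replicates by definition; the highest pair is that of Lamc1, at 7.05 and 5.52.

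Col4a1 and Col4a2 encode the chains of the most common collagen IV trimer and start head to head on chromosome 8, their spans overlapping by 85 nt at the shared 5′ end. Col4a2 (Entrez 12827, chr8:11312805-11449287, plus strand) had 62 and 70 clusters, 6 (9.68%) and 3 (4.29%) of them enriched and 3 reproducible in each replicate. Its median fold was 1.23 and 1.03. Col4a1 (Entrez 12826, chr8:11198423-11312889, minus strand) had more clusters, 92 and 87, but 1 and 0 enriched and none reproducible. Its median fold was 0.36 and 0.54, and 38 and 31 of its clusters lay below 0. The median of Col4a2 was therefore higher in both replicates, by more than the medians of either gene differed between replicates.

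The leading pair of Col4a2 lay 105.8 kb from its 5′ end, with a log2 fold of 4.06 and a −log10 p of 5.03 at chr8:11418564-11418666 in replicate 1. In replicate 2 the fold was 4.26 with a −log10 p of 5.98 at chr8:11418541-11418672. Its highest single fold, 5.43 with a −log10 p of 29.7 at chr8:11332004-11332195 in replicate 1, was met by 3.56 with 11.2 in replicate 2. Another region, of 246 nt, began 16.0 kb from the 5′ end and had folds of 3.36 and 3.46. The best pair of Col4a1, 70.2 kb from its 5′ end, reached 2.40 at chr8:11242536-11242679 and 2.74 at chr8:11242607-11242656. The only enriched cluster of Col4a1, at chr8:11286439-11286583 in replicate 1, had a log2 fold of 3.87. No cluster lay near the shared start: the nearest to it began 1.63 kb and 3.09 kb into Col4a1 and 2.69 kb and 2.63 kb into Col4a2.

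Nid1 encodes nidogen-1, the linker that binds the laminin gamma1 chain and collagen IV. Nid1 (Entrez 18073, chr13:13437602-13512275, plus strand) had the fewest clusters of the 9 genes, 38 in each replicate, and the highest folds as a gene. None of its clusters lay below 0, and the lowest fold was 1.21 in replicate 1 and 0.43 in replicate 2. Its median was 2.93 and 2.66, at the percentiles 98.9 and 99.0 of all gene medians. Of its clusters 16 and 15 were enriched and 14 and 12 reproducible, and over both tables its enriched share of 40.8% ranked 4th of 2495 genes. Per 100 kb of span Nid1 had 18.7 reproducible clusters, against 9.66 in Lamc1, 3.62 in Lama2 and between 2.20 and 3.46 in the other genes that had any.

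Clusters of Nid1 were gathered at a few places. A stretch of 3753 nt that began 53.4 kb from the 5′ end (chr13:13490989-13494741) held 7 of its 11 regions, with 9 and 8 reproducible clusters. The leading pair lay in it, with a log2 fold of 6.21 and a −log10 p of 26.5 at chr13:13494278-13494507 in replicate 1. In replicate 2 it had 4.54 and 22.3 at chr13:13494286-13494504, sharing 219 nt. A stretch of 1992 nt that began 9.08 kb from the 5′ end (chr13:13446677-13448668) held 3 regions, with folds up to 4.17 and 4.46. The last region lay at the 3′ end, at 99.0% of the span. There a cluster at chr13:13511425-13511607 had a log2 fold of 4.36 with a −log10 p of 400, the highest value the table of replicate 1 holds, which 407 clusters share. Its partner at chr13:13511424-13511576 had a fold of 3.98 with a −log10 p of 86.6. Both −log10 p values were the highest of the 9 genes in their replicate, although both folds were below those of the leading pair.

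Hspg2 encodes perlecan, a large heparan sulfate proteoglycan. Hspg2 (Entrez 15530, chr4:137468751-137570630, plus strand) had 80 and 93 clusters, 9 and 7 of them enriched and 3 and 4 reproducible. Its median fold was 1.26 and 1.12, with 19 and 11 clusters below 0. Reproducible clusters lay 56.6 kb from the 5′ end in a stretch of 595 nt (chr4:137525397-137525991) and 92.0 kb from it. The leading pair had a log2 fold of 3.28 at chr4:137525397-137525518 in replicate 1 and of 3.78 at chr4:137525398-137525525 in replicate 2. Its neighbour in the same stretch had 4.75 at chr4:137525746-137525975 and 3.26 at chr4:137525747-137525915. The order of these 2 sites thus differed between the replicates. Folds of overlapping pairs in Hspg2 differed between replicates with an SD of 0.89 over 59 pairs. The gap between the 2 sites in replicate 2 was within that spread.

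Col15a1 encodes collagen XV, which lies at the border of the basement membrane and the interstitial matrix. Col15a1 (Entrez 12819, chr4:47207655-47313167, plus strand) had 70 and 74 clusters, 3 and 2 of them enriched, and each of these was reproducible. With an overlap of at least 10 nt required, 2 of the 3 in replicate 1 remained reproducible. Its median fold was 0.84 and 0.85. The leading pair lay 69.9 kb from the 5′ end, with a log2 fold of 4.17 and a −log10 p of 5.60 at chr4:47277603-47277734 in replicate 1. In replicate 2 it had 3.59 and 3.35 at chr4:47277616-47277719. The other region began 76.1 kb from the 5′ end and had highest folds of 3.18 and 3.53.

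**Figure D4:**
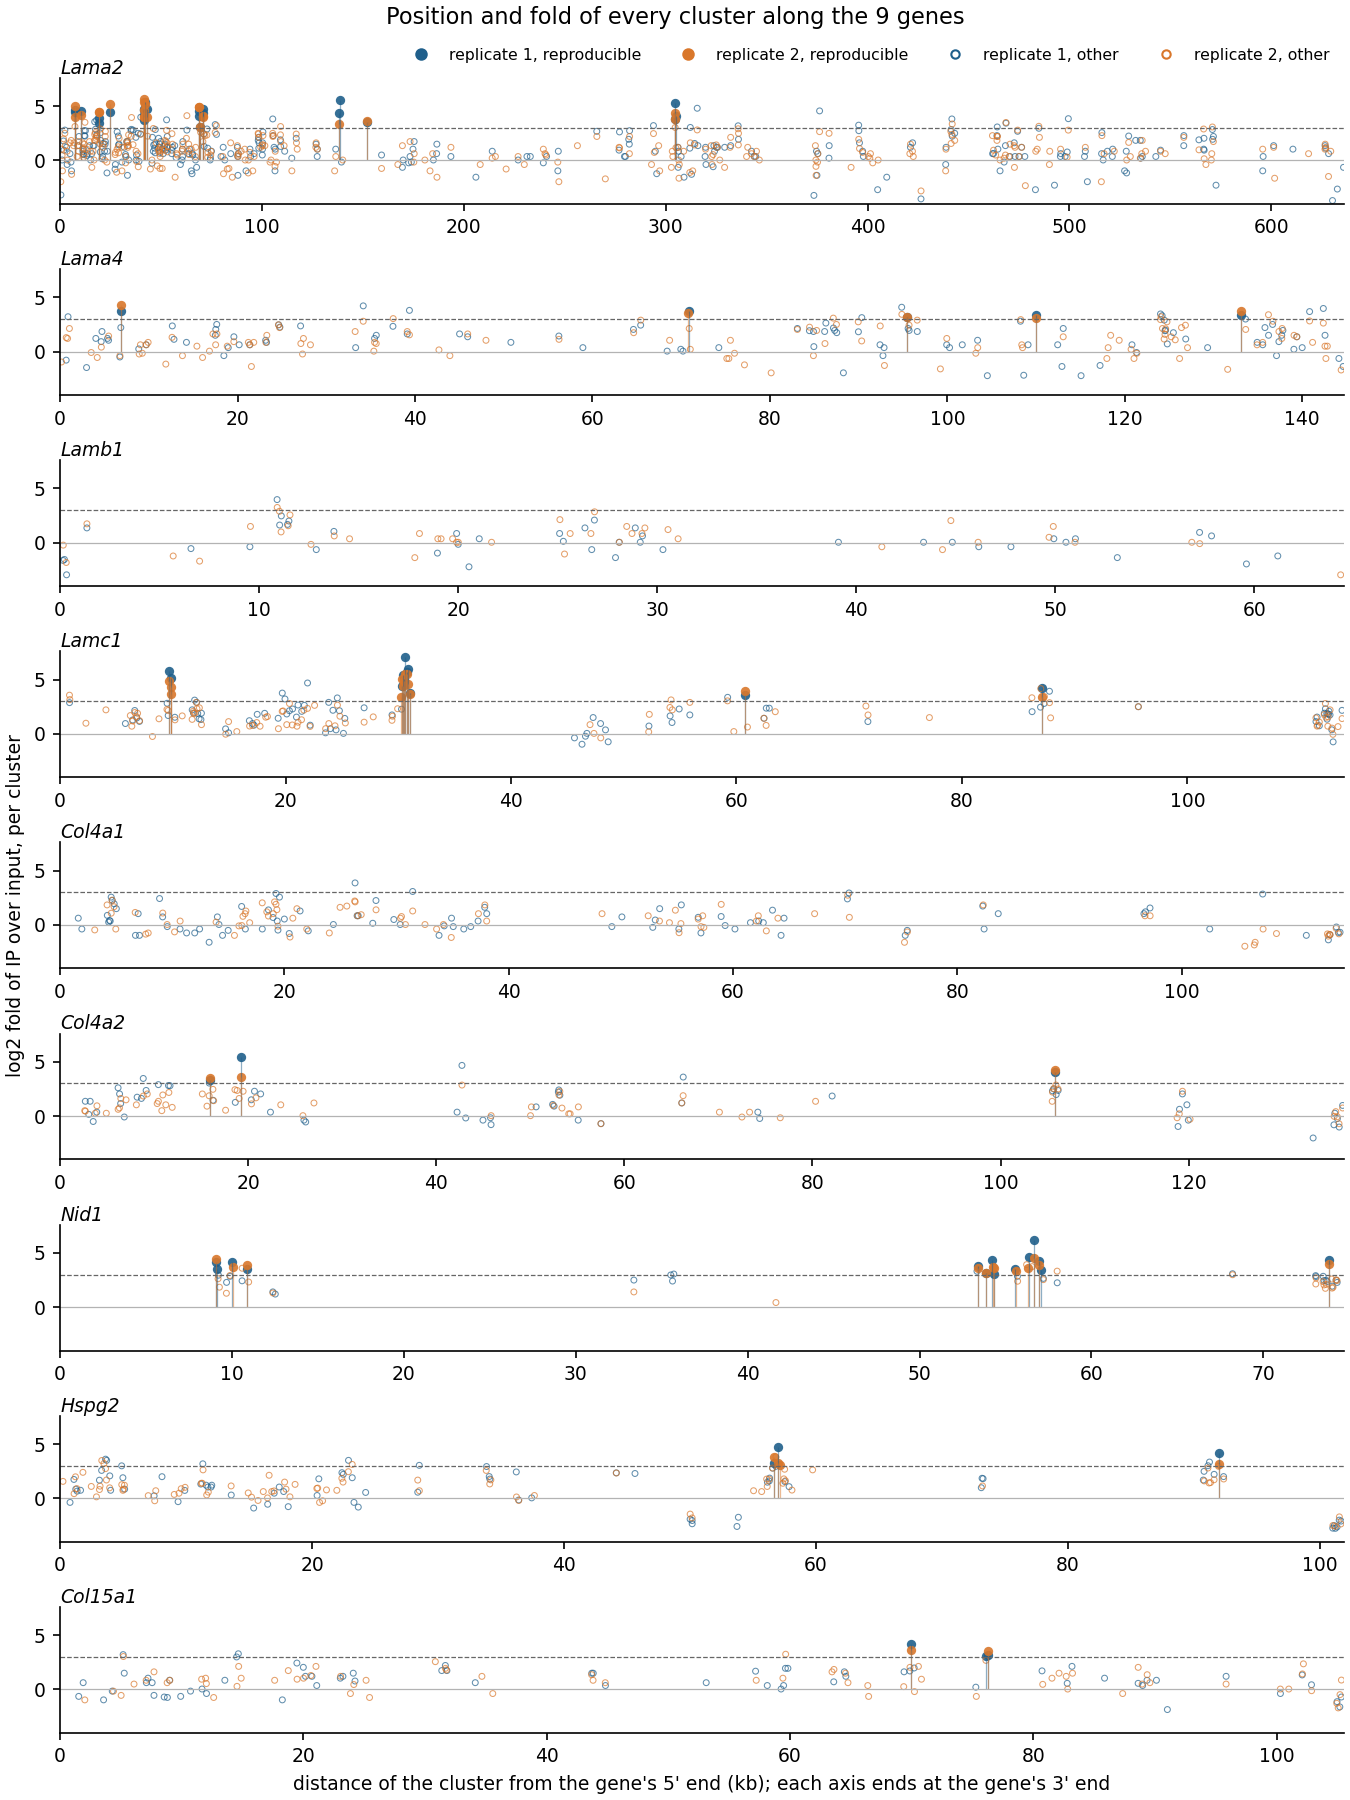
Log2 fold of IP over input (y axis) against distance from the gene's 5′ end in kb (x axis, a separate scale for each gene) for every PTBP1 cluster; filled points with stems are reproducible clusters, open points all others, blue for replicate 1 and orange for replicate 2, and the dashed line is the log2 fold of 3. Reproducible clusters of Lama2 end 305 kb into its span of 635.9 kb, and those of Nid1 stand in 3 groups.

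Joined over the 9 genes, the reproducible clusters formed 45 regions of 50 to 570 nt, with a median of 177 nt and 8645 nt in all. Of these 30 held 1 cluster of each replicate. The midpoints of 26 of the 45 regions lay upstream of the middle of their gene's span, and 3 lay in the last 10% of the span, 1 each in Lama4, Nid1 and Hspg2. Clusters of any kind lay in the upstream part in 576 of 911 cases in replicate 1 and 633 of 993 in replicate 2. The regions thus showed no excess there over the clusters at large. Enriched clusters in that last 10% numbered 5 of 85 in replicate 1 and 3 of 89 in replicate 2. Folds at the 3′ ends ranged widely between the genes. Clusters there had a median fold of −2.31 and −1.71 in Hspg2 and of −0.69 and −0.88 in Col4a1, where 6 of 7 and 11 of 11 lay below 0. In Nid1 the median there was 2.49 and 2.36, in Lamc1 1.77 and 1.24, and in Lama4 1.50 and 1.36. In Lama2 it was 0.36 and 1.03, over 11 and 9 clusters. Col4a2, with −0.52 and −0.03, and Col15a1, with −0.38 and 0.03, lay between, and Lamb1 had −1.59 over 2 clusters and −2.97 in 1.

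Overlapping clusters of the replicates differed in fold by about 1 log2 unit (SD). Over the 599 overlapping pairs of clusters in the 9 genes, the fold of replicate 1 minus that of replicate 2 had a median of 0.093 and an SD of 0.988 on the log2 scale. Over all 210643 pairs of the tables the median was 0.128 and the SD 1.01. Among the 60 pairs enriched in both replicates the median difference was 0.17 with an SD of 0.80, and 37 of them (61.7%) were higher in replicate 1. Differences of less than about 1 log2 unit between single clusters of these genes are therefore within the spread between replicates. By gene the SD ran from 0.61 over 33 pairs in Nid1 to 1.18 over 45 pairs in Col4a1.

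Clusters enriched in 1 replicate alone numbered 38 in replicate 1 and 17 in replicate 2. Of the 38, 36 overlapped a cluster of replicate 2, whose folds ran from 1.16 to 3.43 with a median of 2.46. Of the 17, 12 overlapped a cluster of replicate 1, with folds from 2.24 to 3.43 and a median of 2.83. The partner's fold was at least 2 for 29 of the 38 and for all 12, and 2 and 5 clusters had no partner. The lowest fold inside the threshold was 3.00 in replicate 1, in Hspg2, and 3.04 in replicate 2, in Lama2. Among clusters with a −log10 p of at least 3, the highest fold under the threshold was 2.97, in Nid1, and 2.92, in Lama2. A fold of at least 3 with too low a −log10 p was found for 14 and 20 clusters.

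**Figure D5:**
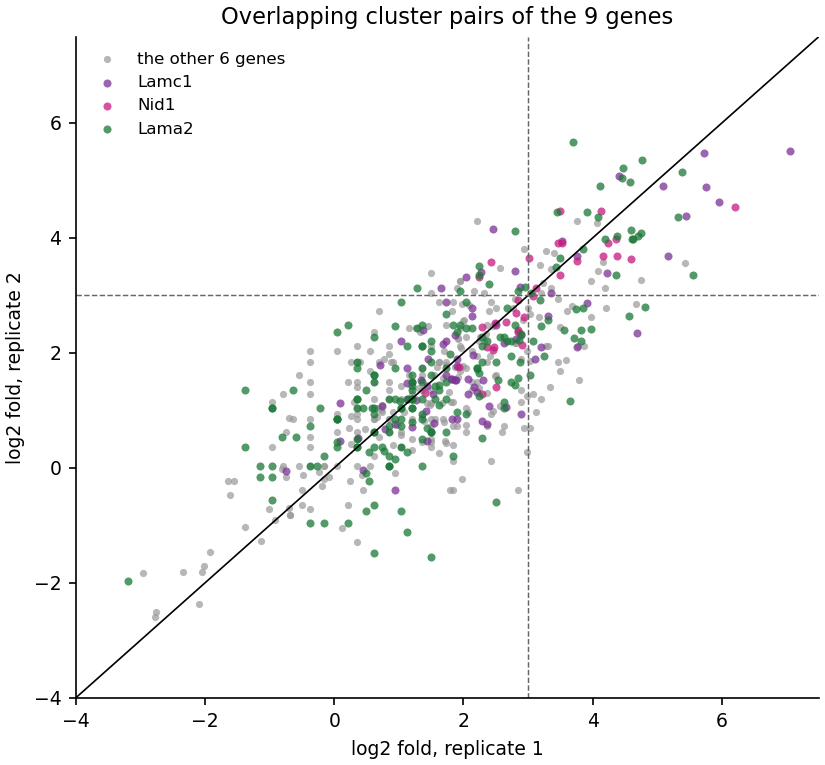
Log2 fold of IP over input in replicate 1 (x axis) and replicate 2 (y axis) for the 599 overlapping pairs of clusters in the 9 genes, coloured for Lamc1, Nid1 and Lama2 and grey for the other 6 genes; dashed lines are the log2 fold of 3 and the solid line marks equal folds. Pairs scatter about the line with an SD of the difference of 0.988, and the pairs with the highest folds belong to Lamc1, Nid1 and Lama2.

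Reproducible clusters were also found in other genes of the basement membrane. Of 24 other basement membrane components with clusters in both tables, 12 (50%) had a reproducible cluster, 32 clusters in all. The share was 24.9% over all genes with clusters in both tables and 75.2% over those with at least 38 clusters in each. These components held 2 to 210 clusters in a table, so neither share was matched to them in coverage. Of their 1208 and 1209 clusters 4.72% and 3.14% were enriched, both below the share of all clusters. Over the 23 with at least 3 clusters in both tables, the median of gene medians was 0.62 and 0.36. Col4a4, another collagen IV chain, had 6 reproducible clusters, with a leading pair at 5.70 and 5.18. Hmcn1 (hemicentin-1) had 5, with 3.93 and 3.83. Pxdn, the peroxidasin that cross-links collagen IV, had 4, with 6.01 and 4.15. Sparc, a collagen-binding matricellular protein, had 4, with 4.04 and 3.89, and Col4a5 had 3, with 4.95 and 4.60. Lama1 was not scored, since no strand could be given to it.

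Receptors of the basement membrane held 6 to 108 clusters in a table, and collagen folding and modifying enzymes 2 to 43. Shares over all genes, 24.9% and, with at least 38 clusters in each table, 75.2%, were not matched to them in coverage. Of 10 receptors, 3 had a reproducible cluster. These were Itga1, an integrin alpha chain that binds collagen IV, with 7 and a leading pair at 4.90 and 4.68, Itgb1, its beta partner, with 3 at 4.46 and 4.24, and Itga6, a laminin-binding chain, with 1 at 3.64 and 3.55. Of 9 collagen folding and modifying enzymes, 3 had one. These were the lysyl hydroxylase Plod2, with 12 and a leading pair at 5.47 and 5.12, the prolyl hydroxylase subunit P4ha2, with 5 at 4.80 and 3.64, and the collagen galactosyltransferase Colgalt1, with 1 at 3.59 and 4.48. Enriched shares were 7.28% and 4.90% in the receptors, near the 6.31% and 4.71% of all clusters, and 12.7% and 12.9% in the enzymes. No test was made of these lists, and in the enzymes 2 genes, Plod2 and P4ha2, held 17 of the 18 reproducible clusters.

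The genes most like Lama2, the one of the 9 with the most reproducible clusters, were found by Euclidean distance over 6 values. These were the log2 number of clusters, the log2 of 1 plus the number enriched, and the median fold, in each of the 2 replicates. They were Sox6 at a distance of 0.14, Magi1 at 0.34, Ank2 at 0.35, St6galnac3 at 0.37 and Arhgap6 at 0.37, where 1 is the SD over genes of a single value. They held 28, 26, 25, 29 and 31 reproducible clusters. Of the other 8 basement membrane genes the nearest to Lama2 was Lamc1, at rank 292 of 10690 genes. Most of the 6 values were counts of clusters. With only 8 other basement membrane genes among 10690, the nearest genes were likely to come from outside the 9 in any case. The ranking therefore says nothing particular about basement membrane genes.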

How the data were processed

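PTBP1 eCLIP of whole mouse heart was analysed from 1 table of clusters per replicate. Per the submitters' processing notes, the tools included STAR 2.6.0c, cutadapt 2.7 and UMI-tools 0.5.1 (roles not stated), with builds hg38 and mm10. Neither the cluster caller nor the p-value's test is given in the sources used here. Per the file headers, the authors deposited for each cluster a log2 fold change, taken as IP over its own input, and a −log10 p-value, which stops at 400. Read counts were not used here, so depth was not assessed.

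Clusters were placed by midpoint in the spans of 34627 RefSeq genes of GRCm38, which the coordinates match (the last chromosome 1 cluster of replicate 1 ends at 195161571), and are given counting from 1. Strand came from RefSeq's promoter table for 27023 genes and from the clusters themselves for 2532, Lamc1 and Lama4 among them; the sources agreed in 99.4% of 9927 genes with both. Exons, introns, UTRs and the sequence under clusters were not used here, so position in the span stands in for feature type and motifs were not counted. Of clusters with identical coordinates in both tables, 196, none had an identical log2 fold.

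The 9 genes, gene lists and thresholds were chosen with earlier results of these data known. Named clusters are each gene's leading pair, regions and stretches (regions less than 5 kb apart); in other lists up to 5 genes with most reproducible clusters are named. No test of significance was made, since each cluster has 1 fold per replicate. The finding of overlaps was tested on simulated intervals, and placement in genes was not. Alternatives were other thresholds, overlaps, placements and averages. Work was done in Python 3.11.15 with pandas 2.3.3, numpy 2.4.6 and matplotlib 3.10.9.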

Additional observations from a re-analysis of the deposited data

How the results depend on the processing

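Under other choices 7 of the 9 genes had a reproducible cluster, except at a log2 fold threshold of 4, where 4 did (Lama2 with 13, Lamc1 with 7, Nid1 with 2 and Col4a2 with 1), and by replicate 1 alone, where all 9 had an enriched cluster. That threshold left 44 and 31 enriched and 23 reproducible clusters. A threshold of 2 gave 123 enriched clusters in replicate 2 and 112 reproducible ones, again none in Col4a1 or Lamb1. With 1 replicate left out, the enriched clusters of the other numbered 78 to 100, in 7 to 9 genes. Weighting clusters by length raised the median of gene averages to 1.70 and 1.48. This was past the SD of 0.14 between the medians of gene medians of the 2 replicates, 1.23 and 1.03. That SD was also applied to the paired fold difference, which is a different quantity. A −log10 p threshold of 5 (47 reproducible clusters), placement by any overlap (62), an overlap of 10 nt or of at least 50% of the shorter cluster (61 each), joining into regions (45), unweighted means (1.20 and 1.15), clusters of at least 20 nt (1.36 and 1.11) and closer pairs (difference 0.11) stayed within 1.5 times the count or within that SD. The limits are the 2 lysates, read numbers per cluster that were not used, and clusters of 1 gene that share its RNA.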

Other observations

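Many log2 folds took values on a ladder. With a constant added for each replicate, 2 to the power of the fold was a whole number within 0.001 for 67.2% of all clusters in replicate 1 and 64.4% in replicate 2. In the 9 basement membrane genes this held for 63 of 100 and 48 of 78 enriched clusters. Enriched clusters on the ladder had a median −log10 p of 5.60 and 6.29, and those off it 10.1 and 14.3.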
